A study of Homo sapiens with 4 samples.

Results

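The spliceosomal small nuclear RNAs (snRNAs) were followed in MHCC97H cells with HNRNPM knocked down and in wild-type MHCC97H cells. The set holds every gene name that starts with RNU and a digit or with RNVU1 and whose mean RPKM (reads over exon length, scaled to library depth) over the 4 libraries was at least 1. That gave 181 of 39306 gene names, out of 745 names that match the pattern, and 154 of the 181 carry a name ending in P, the mark of a pseudogene or copy. Members fall into the classes U1 (44), U2 (15), U4 (11), U5 (10), U6 (68), U11 (2), U12 (1), U4atac (3), U6atac (12) and U7 (14). U7 acts in histone mRNA processing and not in splicing. The last name, RNU105B, matches the pattern but is annotated as a small nucleolar RNA. Members were chosen by their mean level over both groups and not by the contrast, yet 20 members reached 1 RPKM only in the knockdown mean and 22 only in the wild-type mean. Around the threshold, RNU4-76P, RNU2-69P and RNU6-875P had mean values of 1.01 RPKM each, while RNU6-720P, RNU7-18P and RNU6-890P were left out at 0.981, 0.996 and 0.999 RPKM.

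MHCC97H is an established human hepatocellular carcinoma line. The knockdown cells carried a short hairpin RNA against HNRNPM (2 libraries, genotype HNRNPM-knockdown), and the wild-type cells were labelled HNRNPM-wild type (2 libraries). The labels name no control hairpin, so carrying a hairpin and losing HNRNPM cannot be told apart. They do not say whether replicates were separate cultures, so the spread behind every p-value may be technical. Total RNA was depleted of ribosomal RNA and sequenced on a NovaSeq with a stranded kit.

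HNRNPM encodes a nuclear RNA-binding protein that regulates splicing. The gene (GRCh38 chromosome 19, positions 8444767 to 8489114, plus strand) had 21.8 and 20.4 RPKM in the knockdown libraries, against 51.3 and 51.6 RPKM in the wild-type libraries, with a log2 fold change of -1.35 ± 0.07 (SE, adjusted p = 0.00270 by limma). Assigned reads numbered 12708165 and 11498663 in the knockdown libraries and 18317579 and 19659106 in the wild-type libraries, so the knockdown libraries were shallower. Of 11 hepatic marker genes, 7 averaged at least 1 RPKM, with summed levels of 1098 and 1144 RPKM in the knockdown libraries and 907 and 813 RPKM in the wild-type libraries, mostly KRT8 and KRT18, while APOA2 was at 0 in 3 libraries. Of 9 markers of leukocytes, endothelium and fibroblasts, 2 (CD68 and PECAM1) reached that level, with sums of 66.9 to 68.2 RPKM in the knockdown libraries and 55.5 to 67.4 RPKM in the wild-type libraries. In bulk RNA, fewer cells of a type and less RNA per cell cannot be told apart.

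U1, U2, U4, U5 and U6 snRNAs, each bound by its own proteins, build the major spliceosome. U1 pairs with the 5′ splice site, U2 with the branch point, and U6, which arrives paired to U4, replaces U1 at the 5′ splice site, while a loop of U5 holds the exon ends. U11, U12, U4atac and U6atac do the work of U1, U2, U4 and U6 at the rare minor introns. All but U6 and U6atac are made by RNA polymerase II, trimmed at the 3′ end after cleavage by the Integrator complex, and assembled with Sm proteins in the cytoplasm. U6 and U6atac are polymerase III products bound by LSm proteins. The genes are repeated in the human genome, with many truncated or mutated copies, and reads from identical copies cannot be assigned by sequence alone.

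The U1 genes that the results turn on are shown with the bases that pair with the 5′ splice site in capitals (ACTTACCTG, DNA letters, searched in the transcript strand). Sequences are those of GENCODE 29 on GRCh38, written 5′ to 3′. RNU1-1 stands for 7 genes with the same 164 bases, RNVU1-7 is the most abundant member, and the 3 other RNVU1 genes are variant U1 genes that rose.
RNU1-1: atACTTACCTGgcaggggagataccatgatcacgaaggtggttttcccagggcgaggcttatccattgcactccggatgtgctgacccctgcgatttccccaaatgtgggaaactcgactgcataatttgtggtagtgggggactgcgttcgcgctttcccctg
RNVU1-7: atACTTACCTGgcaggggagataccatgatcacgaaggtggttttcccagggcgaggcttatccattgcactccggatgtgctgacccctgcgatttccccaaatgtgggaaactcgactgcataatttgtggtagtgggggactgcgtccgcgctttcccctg
RNVU1-15: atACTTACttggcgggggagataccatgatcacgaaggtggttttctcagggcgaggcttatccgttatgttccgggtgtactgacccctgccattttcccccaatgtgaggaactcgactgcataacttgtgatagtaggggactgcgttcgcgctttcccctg
RNVU1-14: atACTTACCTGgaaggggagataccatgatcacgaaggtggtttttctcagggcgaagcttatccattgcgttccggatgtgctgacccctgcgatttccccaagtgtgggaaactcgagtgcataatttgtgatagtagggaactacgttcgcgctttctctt
RNVU1-6: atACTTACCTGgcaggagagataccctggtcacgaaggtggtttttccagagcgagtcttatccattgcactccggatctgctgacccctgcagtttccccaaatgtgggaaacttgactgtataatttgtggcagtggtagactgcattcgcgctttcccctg
RNVU1-7 differs from RNU1-1 by T150C, counted from 1 at the 5′ end with the base of RNU1-1 first. RNVU1-15 differs from the pairing element only by a T for the C after ACTTAC, and it keeps the TG that follows. Only the unbroken first 6 bases, ACTTAC, are in capitals there. The full element stood in 22 of 44 U1 members, in 32 of 92 U1 names at any level (34.8%) and in 0 of 137 members of the other classes. It was found on the opposite strand of none of the 44.

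The share of snRNA genes and copies that changed was near that of all genes. The limma test on log2(RPKM + 0.1) was applied to genes with enough reads, and 56 of the 181 members passed that filter. Among the 56, 8 were higher and 6 lower in knockdown cells at an adjusted p under 0.05, which is 25.0% of those tested. Over all 20221 tested genes the share was 24.9% (11.1% higher and 13.8% lower), and over the 619 tested genes with exons of 300 bp or less it was 35.2% (19.9% higher and 15.3% lower). The median log2 fold change was 0.12 over the 56 members and -0.03 over all tested genes. Groups did not overlap for 33 members (58.9%), and for 67.6% of all tested genes. The count of 8 higher members became 4 without knockdown replicate 1, 5 without wild-type replicate 1 and 3 without the filter on low values. The other 125 members were not tested: none had more than 20 reads in a library, the highest mean was 5.38 RPKM (RNU6-11P), and 38 had no read in at least 1 library. Most of these were U6 copies (63) and U1 copies (19). Among the tested members, 12 had fewer than 20 reads in every library, and the modelled spread follows RPKM and not the number of reads, so an SE of such a member can be smaller than its counting error.

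**Figure D1:**
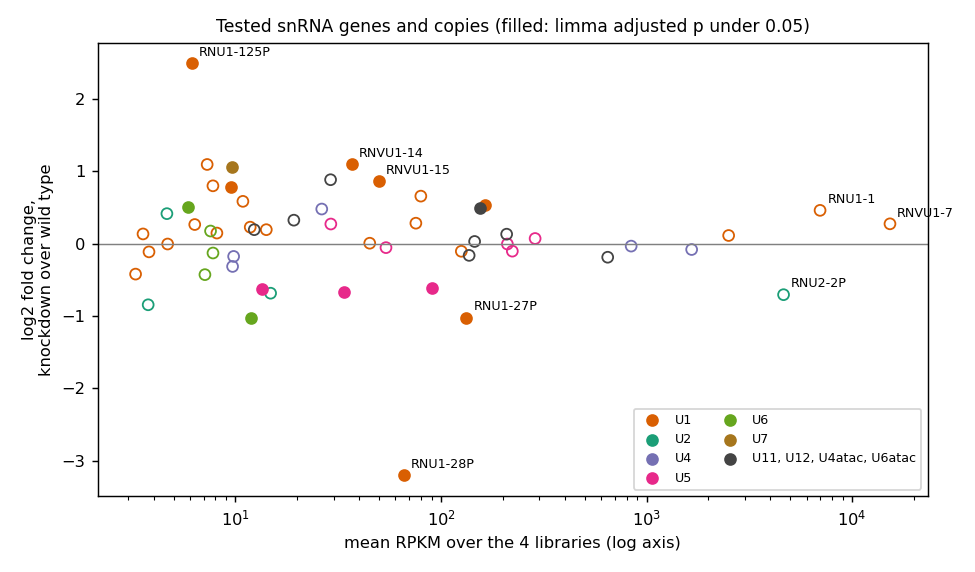
Log2 fold change (knockdown over wild type) of the 56 tested members against their mean RPKM over the 4 libraries (log axis), coloured by class; filled points passed an adjusted p of 0.05. RNU1-28P stands lowest at -3.21, RNU1-125P highest at 2.50, and the most abundant genes, RNVU1-7 and RNU1-1, are open points above 0.

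Reads of the set were concentrated in few genes. Members took 0.667% and 0.569% of assigned reads in the knockdown libraries, against 0.567% and 0.534% in the wild-type libraries. The 4 most abundant members (RNVU1-7, RNU1-1, RNU2-2P and RNU1-3) held 85.5% of the member reads in both knockdown libraries, against 83.9% and 83.7% in the wild-type libraries. RNVU1-7 alone held 44.5% and 46.1% in the knockdown libraries and 41.5% and 38.8% in the wild-type libraries.

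Summed over copies, the U1 class was higher and the U2 class lower in knockdown cells. U1 had 4963 and 4311 CPM in the knockdown libraries, against 3839.7 and 3679.9 CPM in the wild-type libraries, in reads scaled to library depth and trimmed-mean factors (CPM). Its log2 ratio was 0.30 (SD within groups 0.106, n = 2 each), and the groups did not overlap. U2 had 754 and 619 CPM in the knockdown libraries, against 1151 and 1070.3 CPM in the wild-type libraries, with a log2 ratio of -0.70 (SD within groups 0.151, n = 2 each), again without overlap. These sums carry no test, and groups did not overlap for 67.6% of all tested genes either. Both kept their direction with total-read scaling, median-of-ratios scaling, without short genes in the scaling and without any 1 library, where the U2 ratio ran between -0.84 and -0.56. The U1 ratio was 0.20 with knockdown replicate 1 left out and 0.40 with knockdown replicate 2 left out.

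The ratio of U1 to U2 reads within a library needs no scaling between libraries and was looked at after the class values had been seen. U1 reads per U2 read numbered 6.58 and 6.96 in the knockdown libraries, against 3.34 and 3.44 in the wild-type libraries, so the ratio was higher in both knockdown libraries. The ratio of U1 to U4 was 12.9 and 13.4 in the knockdown libraries, against 10.2 and 10.3 in the wild-type libraries, and that of U2 to U4 was 1.96 and 1.92 in the knockdown libraries, against 3.04 and 3.004 in the wild-type libraries. U4 set against U5 gave 3.36 and 3.22 in the knockdown libraries, against 3.33 and 3.14 in the wild-type libraries, and here the groups overlapped. With 2 libraries a group the smallest 2-sided exact permutation p is 0.333, so no p is given. The U2 sum is 98.8% to 99.3% RNU2-2P, and the gene RNU2-1 was not analysed here.

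The other major classes differed by less. U4 had 384 and 322 CPM in the knockdown libraries, against 378 and 356 CPM in the wild-type libraries, and its log2 ratio of -0.06 (SD within groups 0.134, n = 2 each) was smaller than the spread. U5 had 114 and 100.2 CPM in the knockdown libraries, against 113 and 114 CPM in the wild-type libraries, with a log2 ratio of -0.08 (SD within groups 0.0962, n = 2 each). U6 had only 17.3 and 14.5 CPM in the knockdown libraries, against 17.4 and 21.0 CPM in the wild-type libraries, with a log2 ratio of -0.27 (SD within groups 0.184, n = 2 each). Its groups did not overlap, by a narrow margin. U7 had 2.22 and 1.88 CPM in the knockdown libraries, against 2.11 and 2.51 CPM in the wild-type libraries, which overlap. U6 reads per U4 read numbered 0.0450 and 0.0451 in the knockdown libraries, against 0.0461 and 0.0589 in the wild-type libraries, although U6 has the most members. U6 is 107 bases long in its full copies and U7 63 bases, and the labels' protocols describe a size selection of the library products. The part of size selection in these levels was not tested.

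**Figure D2:**
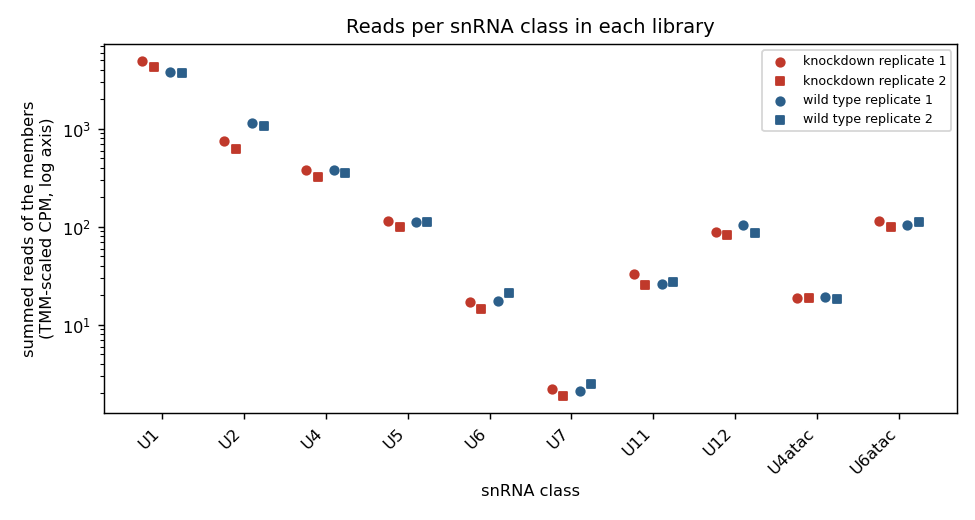
Summed CPM of the members of each snRNA class (log axis) in each library, knockdown libraries (red) left of wild-type libraries (blue). U1 is higher and U2 lower in both knockdown libraries. U6 is also lower in both, narrowly (17.3 against 17.4 CPM at the closest). The values of the 2 groups overlap in U4, U5, U7 and each minor class.

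Among the main U1 genes the increase was seen in values but did not pass the main test, by limma. The prior of that test depends on RPKM level, and its SE was large at the highest levels (0.34 for RNVU1-7, 0.70 for RN7SL1 and 0.81 for RN7SL2). A gene that did not pass there need not have replicates that differ much. RNVU1-7 (chromosome 1, positions 148038753 to 148038916, minus strand) had 18125 and 16002 RPKM in the knockdown libraries, against 14348 and 12627 RPKM in the wild-type libraries. Both knockdown values lie above both wild-type values, with a log2 fold change of 0.28 ± 0.34 (SE, adjusted p = 0.591 by limma). RNU1-1 (chromosome 1, positions 16514122 to 16514285, minus strand), a main U1 gene, had 9047 and 7458 RPKM in the knockdown libraries, against 5487 and 5932 RPKM in the wild-type libraries. Its groups were also apart, and its log2 fold change was 0.46 ± 0.25 (SE, adjusted p = 0.218 by limma), with a 95% interval of -0.15 to 1.08. RNU1-3 had 2935 and 2401 RPKM in the knockdown libraries, against 2299 and 2395 RPKM in the wild-type libraries, a log2 fold change of 0.11 ± 0.17 (SE, adjusted p = 0.657 by limma), and turned to -0.023 without knockdown replicate 1. Limma-voom on the recovered reads, which models the spread on the read scale, gave an adjusted p of 0.00821 for RNVU1-7 and 0.000140 for RNU1-1, and 0.291 for RNU1-3.

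The identical copies did not move together. RNU1-1, RNU1-2, RNU1-3, RNU1-4, RNVU1-18, RNU1-27P and RNU1-28P share all 164 bases, so reads that lie inside the gene fit all 7, and the sources used here do not give how the authors assigned such reads. Summed, the 7 genes had 25580 and 19103 reads in the knockdown libraries, against 25019 and 28155 reads in the wild-type libraries, a scaled log2 ratio of 0.32. Levels within this group differed widely, and RNU1-2 had only 7.20 and 10.1 RPKM in the knockdown libraries, against 9.65 and 5.58 RPKM in the wild-type libraries. RNU1-4 had 124 and 123 RPKM in the knockdown libraries, against 136 and 118 RPKM in the wild-type libraries, and RNVU1-18 had 52.3 and 40.3 RPKM in the knockdown libraries, against 45.3 and 42.2 RPKM in the wild-type libraries. Neither passed the test, with log2 fold changes of -0.10 ± 0.09 (SE, adjusted p = 0.410 by limma) and 0.01 ± 0.13 (SE, adjusted p = 0.973 by limma).

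RNU1-28P and RNU1-27P, which lie on chromosome 14 on opposite strands, fell. RNU1-28P (positions 34556226 to 34556389, minus strand) had 13.9 and 12.2 RPKM in the knockdown libraries, against 146 and 92.1 RPKM in the wild-type libraries, from 29 and 23 reads in the knockdown libraries, against 438 and 297 reads in the wild-type libraries. The knockdown values were far below the wild-type values, with a read ratio of 0.106 (exact 95% counting interval 0.0785 to 0.141). Its log2 fold change was -3.21 ± 0.21 (SE, adjusted p = 0.00314 by limma). RNU1-27P (positions 34546714 to 34546877, plus strand) had 94.0 and 84.8 RPKM in the knockdown libraries, against 205 and 147 RPKM in the wild-type libraries. The groups did not overlap, with a log2 fold change of -1.02 ± 0.16 (SE, adjusted p = 0.0113 by limma). The genes are 9348 bp apart, neither overlaps another gene, and both passed in limma-voom and without any 1 library. Their reads together gave a scaled log2 ratio of -1.57, against 0.36 for the 5 other identical copies.

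**Figure D3:**
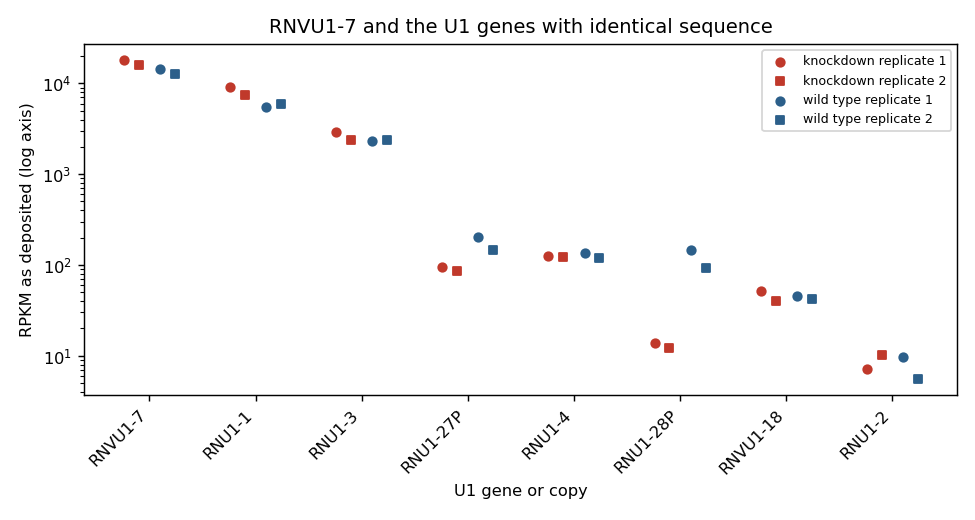
Deposited RPKM (log axis) of RNVU1-7 and of the 7 U1 genes with identical sequence in each library, knockdown libraries (red) left of wild-type libraries (blue), ordered by mean level. RNU1-27P and RNU1-28P are lower in both knockdown libraries, at 84.8 to 94.0 and 12.2 to 13.9 RPKM, and RNU1-1 is higher.

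Of the 8 RNVU1 members, 5 were tested and 3 rose. Of all tested genes 11.1% were higher, and of those with exons of 300 bp or less 19.9%. RNVU1-15 (chromosome 1, positions 144412576 to 144412740, plus strand) had 70.1 and 60.6 RPKM in the knockdown libraries, against 32.8 and 35.5 RPKM in the wild-type libraries. Its level was higher in both knockdown libraries, with a log2 fold change of 0.87 ± 0.09 (SE, adjusted p = 0.00554 by limma), also past the threshold in limma-voom and without any 1 library. RNVU1-14 (chromosome 1, positions 145281116 to 145281279, plus strand) had 43.2 and 58.9 RPKM in the knockdown libraries, against 19.6 and 25.7 RPKM in the wild-type libraries, a log2 fold change of 1.10 ± 0.19 (SE, adjusted p = 0.0160 by limma). It lies inside the exon of CH17-373J23.1 on the same strand, which rose, with a log2 fold change of 1.38 ± 0.15 (SE, adjusted p = 0.00554 by limma), and the call was lost with wild-type replicate 1 left out (0.89, adjusted p = 0.0576 by limma). RNVU1-14 reads equal 62.5% and 68.9% of CH17-373J23.1 reads in the knockdown libraries and 77.6% and 83.0% in the wild-type libraries. Reads of CH17-373J23.1 outside RNVU1-14 were 4.13 and 4.28 CPM in the knockdown libraries, against 0.943 and 0.890 CPM in the wild-type libraries. RNVU1-6 (chromosome 1, positions 146052081 to 146052244, minus strand) had 13.4 and 11.1 RPKM in the knockdown libraries, against 6.32 and 7.13 RPKM in the wild-type libraries, and its log2 fold change was 0.79 ± 0.12 (SE, adjusted p = 0.0110 by limma). It rests on 28 and 21 reads in the knockdown libraries, against 19 and 23 reads in the wild-type libraries, and limma-voom gave an adjusted p of 0.0510.

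The other U1 copies that passed were RNU1-18P and RNU1-125P. RNU1-18P (chromosome 6, positions 122211648 to 122211811, plus strand), between genes, had 216 and 181 RPKM in the knockdown libraries, against 119 and 142 RPKM in the wild-type libraries, higher in both knockdown libraries. It rose with a log2 fold change of 0.54 ± 0.13 (SE, adjusted p = 0.0344 by limma), and the call was lost with knockdown replicate 1 left out (0.42, adjusted p = 0.139 by limma) or with wild-type replicate 1 left out (0.40, adjusted p = 0.0918 by limma). RNU1-125P (chromosome 16, positions 3069523 to 3069651, plus strand), a shortened copy of 129 bases, had 10.4 and 10.1 RPKM in the knockdown libraries, against 0.846 and 3.15 RPKM in the wild-type libraries, from 17 and 15 reads in the knockdown libraries, against 2 and 8 reads in the wild-type libraries. Its log2 fold change was 2.50 ± 0.55 (SE, adjusted p = 0.0279 by limma), and the call was lost with knockdown replicate 1 left out (2.49, adjusted p = 0.0516 by limma). The 2 wild-type libraries differed, and the fold change was 1.60 without wild-type replicate 1 and 3.40 without wild-type replicate 2, with the call kept in both fits. This copy lies in an exon of IL32, which encodes a cytokine, on the same strand, and IL32 had 17.4 and 16.6 RPKM in the knockdown libraries, against 4.08 and 4.95 RPKM in the wild-type libraries, with a log2 fold change of 1.83 ± 0.12 (SE, adjusted p = 0.00314 by limma). The strand and overlap settings are not stated, but reads in an exon of 2 genes were counted for both. Reads of a copy and of the exon around it therefore cannot be told apart. Reads of IL32 outside RNU1-125P were 53.1 and 51.1 CPM in the knockdown libraries, against 13.2 and 15.9 CPM in the wild-type libraries. Of the 25 tested U1 members, 5 were higher, 2 lower and 18 did not pass. Of all tested genes 11.1% were higher and 13.8% lower, and of those with exons of 300 bp or less 19.9% and 15.3%. Among the 25, 14 had both knockdown values above both wild-type values, as had 31.0% of all tested genes. Level and likeness to RNU1-1 went together over the 43 other U1 members (Spearman rho -0.55 between edit distance and mean RPKM; copies share reads, so this is a description only).

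The U2 gene measured here is RNU2-2P, named as a pseudogene. It is shown with the branch point pairing element GTAGTA in capitals, which stood in 9 of the 15 U2 members and in 1.81% of the 166 members of other classes.
RNU2-2P: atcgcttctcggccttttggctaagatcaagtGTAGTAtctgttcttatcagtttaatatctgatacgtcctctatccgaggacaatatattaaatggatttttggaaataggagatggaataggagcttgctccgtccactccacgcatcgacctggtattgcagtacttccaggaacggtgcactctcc
RNU2-2P (chromosome 11, positions 62841619 to 62841809, minus strand) had 4008 and 3259.7 RPKM in the knockdown libraries, against 5888 and 5396 RPKM in the wild-type libraries. Both knockdown values were lower, with a log2 fold change of -0.70 ± 0.21 (SE, adjusted p = 0.0618 by limma), with a 95% interval of -1.23 to -0.18. It did not pass the main test. It passed in limma-voom (adjusted p = 9.91e-07), with robust moderation (limma adjusted p = 0.0176) and with the stricter filter (limma adjusted p = 0.0205). By limma it did not pass with median-of-ratios scaling (adjusted p = 0.0776), total-read scaling (adjusted p = 0.0831) or no filter on low values (adjusted p = 0.323). Neither the other pseudocounts nor the replicate block made it pass. With each library left out, its log2 fold change ran from -0.85 to -0.56. The gene lies inside an exon of WDR74, a ribosome biogenesis factor, and the same reads were counted for both. RNU2-2P reads equal 96.5% and 96.0% of WDR74 reads in the knockdown libraries and 97.2% and 97.3% in the wild-type libraries. WDR74 fell, with a log2 fold change of -0.69 ± 0.11 (SE, adjusted p = 0.0129 by limma), and its reads outside RNU2-2P were 27.0 and 25.5 CPM in the knockdown libraries against 32.8 and 29.9 CPM in the wild-type libraries. WDR74 thus passed and RNU2-2P did not, from nearly the same reads and with nearly the same fold change. The longer WDR74 stood at lower RPKM (187 and 153 in the knockdown libraries, against 272 and 250 in the wild-type libraries), where the modelled SE was smaller. None of the other tested U2 copies passed in the fit of all 4 libraries: RNU2-6P had a log2 fold change of -0.68 ± 0.30 (SE, adjusted p = 0.146 by limma), RNU2-32P one of 0.42 ± 0.13 (SE, adjusted p = 0.0646 by limma) and RNU2-26P one of -0.84 ± 0.44 (SE, adjusted p = 0.205 by limma). RNU2-6P ran from -1.14 without knockdown replicate 1, where it passed (adjusted p = 0.0139 by limma), to -0.23 without knockdown replicate 2. RNU2-32P passed when scaled to total reads only (0.48, adjusted p = 0.0490 by limma) and without wild-type replicate 1 (0.56, adjusted p = 0.0477 by limma), and was 0.28 without wild-type replicate 2.

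U4, which holds U6 inactive until the spliceosome is activated, was carried by 2 neighbouring genes. RNU4-2 (chromosome 12, positions 120291763 to 120291903, minus strand) had 1824 and 1480.3 RPKM in the knockdown libraries, against 1700.1 and 1623 RPKM in the wild-type libraries, overlapping between groups. RNU4-1 (chromosome 12, positions 120293097 to 120293237, minus strand) had 913 and 789 RPKM in the knockdown libraries, against 883 and 781 RPKM in the wild-type libraries, also overlapping. The genes are 141 bases long and differ by T37C, A88G, A99C and T113C, with the base of RNU4-2 first. Log2 fold changes were -0.08 ± 0.15 (SE, adjusted p = 0.734 by limma), 95% interval -0.46 to 0.30, for RNU4-2, and -0.03 ± 0.13 (SE, adjusted p = 0.870 by limma), 95% interval -0.34 to 0.28, for RNU4-1. RNU4-2 stood above RNU4-1 in each library. None of the 5 tested U4 members passed.

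U5 lines the exons up for ligation through its loop, whose bases GCCTTTTAC stood in 8 of 10 U5 members and in 0 of 171 members of other classes. RNU5A-1 is the most abundant U5 gene.
RNU5A-1 (chromosome 15, positions 65296051 to 65296166, plus strand) had 314 and 287 RPKM in the knockdown libraries, against 267 and 279.8 RPKM in the wild-type libraries. A log2 fold change of 0.07 ± 0.09 (SE, adjusted p = 0.570 by limma) did not pass, and RNU5B-1, RNU5D-1 and RNU5E-1 did not pass either, at -0.004 ± 0.13 (SE, adjusted p = 0.987), -0.05 ± 0.07 (SE, adjusted p = 0.586) and -0.10 ± 0.07 (SE, adjusted p = 0.354) by limma. Among the rarer members, 3 fell. RNU5F-1 (chromosome 1, positions 44721786 to 44721902, minus strand) had 86.8 and 61.7 RPKM in the knockdown libraries, against 102 and 112 RPKM in the wild-type libraries. It fell with a log2 fold change of -0.61 ± 0.16 (SE, adjusted p = 0.0464 by limma), and the call was lost with knockdown replicate 2 left out (-0.37, adjusted p = 0.119 by limma), with wild-type replicate 1 left out (-0.69, adjusted p = 0.0997 by limma) or with wild-type replicate 2 left out (-0.53, adjusted p = 0.166 by limma). RNU5E-6P had 30.1 and 23.4 RPKM in the knockdown libraries, against 38.0 and 42.9 RPKM in the wild-type libraries, with a log2 fold change of -0.67 ± 0.13 (SE, adjusted p = 0.0222 by limma), lost with knockdown replicate 2 left out (-0.49, adjusted p = 0.0554 by limma) or with wild-type replicate 2 left out (-0.57, adjusted p = 0.0894 by limma). RNU5A-8P (chromosome 1, positions 210374154 to 210374267, minus strand), in an intron of HHAT on the opposite strand, had 10.4 and 11.4 RPKM in the knockdown libraries, against 15.8 and 16.5 RPKM in the wild-type libraries, from 15 and 15 reads in the knockdown libraries, against 33 and 37 reads in the wild-type libraries. Its log2 fold change was -0.63 ± 0.09 (SE, adjusted p = 0.00857 by limma), while limma-voom gave an adjusted p of 0.140. HHAT did not pass, at -1.01 ± 0.31 (SE, adjusted p = 0.0668 by limma), and passed in limma-voom (adjusted p = 0.00269).

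U6 forms part of the catalytic core, and its ACAGAGA box pairs with the 5′ splice site. The box stood in 31 of the 68 U6 members and in 0 of 113 members of other classes. RNU6-4P carries the same 107 bases as RNU6-1, RNU6-2, RNU6-3P, RNU6-5P, RNU6-6P and RNU6-9.
RNU6-4P (chromosome 3, positions 181231737 to 181231843, plus strand), in an intron of SOX2-OT, had 8.82 and 7.31 RPKM in the knockdown libraries, against 15.3 and 16.2 RPKM in the wild-type libraries, from 12 and 9 reads in the knockdown libraries, against 30 and 34 reads in the wild-type libraries. It fell, with a log2 fold change of -1.02 ± 0.11 (SE, adjusted p = 0.00536 by limma), also past the threshold in limma-voom (adjusted p = 0.0330) and without any 1 library. The 7 identical genes together had 15 and 12 reads in the knockdown libraries, against 47 and 50 reads in the wild-type libraries, a scaled log2 ratio of -1.27. Only RNU6-4P and RNU6-2 of these reached 1 RPKM. RNU6-395P (chromosome 2, positions 127845236 to 127845341, plus strand) had 6.68 and 7.38 RPKM in the knockdown libraries, against 4.64 and 4.80 RPKM in the wild-type libraries, with a log2 fold change of 0.50 ± 0.10 (SE, adjusted p = 0.0221 by limma). It rests on 9 and 9 reads in the knockdown libraries, against 9 and 10 reads in the wild-type libraries, whose ratio has an exact 95% counting interval of 0.703 to 2.86, limma-voom gave an adjusted p of 0.386, and the limma call was lost with knockdown replicate 2 left out (0.42, adjusted p = 0.0991 by limma), with wild-type replicate 1 left out (0.47, adjusted p = 0.0732 by limma) or with wild-type replicate 2 left out (0.54, adjusted p = 0.0614 by limma). RNU6-914P, RNU6-26P and RNU6-1283P, the other tested U6 members, did not pass.

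**Figure D4:**
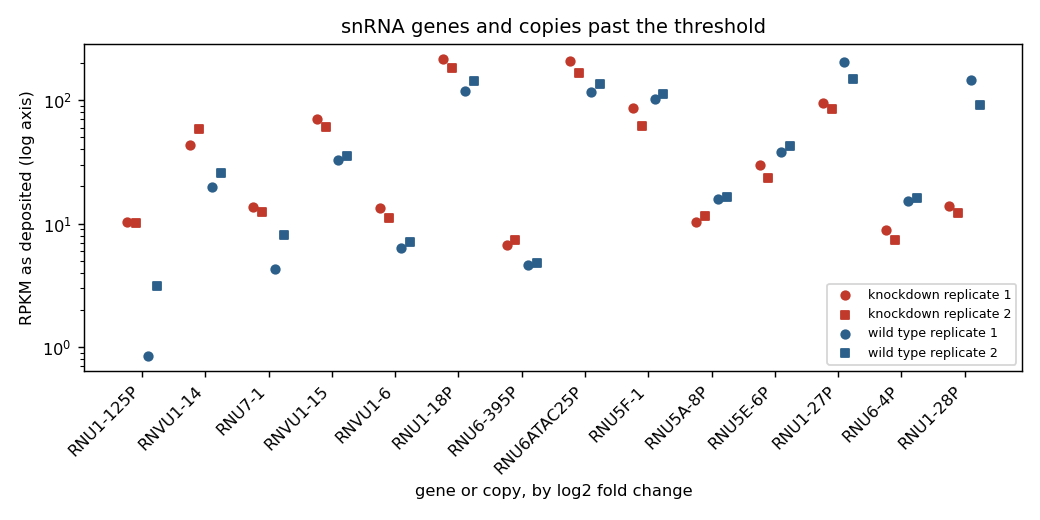
Deposited RPKM (log axis) of the 14 members past the threshold in each library, knockdown libraries (red) left of wild-type libraries (blue), ordered by log2 fold change. The 8 members on the left are higher in both knockdown libraries and the 6 on the right lower in both; RNU1-28P and RNU1-125P are the farthest apart.

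None of the 4 minor spliceosome snRNA genes passed the test. U11, which reads the 5′ splice site of minor introns, had 252 and 195 RPKM in the knockdown libraries, against 191 and 197 RPKM in the wild-type libraries, with a log2 fold change of 0.13 ± 0.13 (SE, adjusted p = 0.483 by limma). U12, which pairs with their branch point, had 138 and 127 RPKM in the knockdown libraries, against 156 and 128 RPKM in the wild-type libraries, with a log2 fold change of -0.16 ± 0.11 (SE, adjusted p = 0.313 by limma). RNU12 is 664 bp long in the tables and 150 bases in GENCODE 29, so its RPKM is not comparable with the others. RNU4ATAC had 152 and 149 RPKM in the knockdown libraries, against 145 and 137 RPKM in the wild-type libraries, with a log2 fold change of 0.03 ± 0.07 (SE, adjusted p = 0.766 by limma) and a 95% interval of -0.14 to 0.20. RNU6ATAC had 665 and 576 RPKM in the knockdown libraries, against 673 and 675 RPKM in the wild-type libraries, with a log2 fold change of -0.19 ± 0.11 (SE, adjusted p = 0.255 by limma) and a 95% interval of -0.46 to 0.09. U11 reads per U12 read numbered 0.372 and 0.313 in the knockdown libraries, against 0.248 and 0.313 in the wild-type libraries, so the groups overlapped.

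A U6atac copy rose while RNU6ATAC itself did not pass. Both are shown with the bases AAGGAG, which pair with the minor 5′ splice site, in capitals. These stood in 9 of 12 U6atac members, and in 0 of 169 members of other classes on the transcript strand and 3 on the opposite strand.
RNU6ATAC: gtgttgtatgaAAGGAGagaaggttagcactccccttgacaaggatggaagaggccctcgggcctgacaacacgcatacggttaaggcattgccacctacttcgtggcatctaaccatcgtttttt
RNU6ATAC25P: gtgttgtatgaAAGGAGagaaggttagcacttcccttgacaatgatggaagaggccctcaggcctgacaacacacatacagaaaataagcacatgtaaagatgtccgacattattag
RNU6ATAC25P (chromosome 16, positions 70852698 to 70852814, plus strand), in an intron of HYDIN on the opposite strand, had 206 and 165 RPKM in the knockdown libraries, against 116 and 135 RPKM in the wild-type libraries. The copy rose with a log2 fold change of 0.50 ± 0.13 (SE, adjusted p = 0.0468 by limma), and the call was lost with knockdown replicate 1 left out (0.34, adjusted p = 0.185 by limma), with wild-type replicate 1 left out (0.38, adjusted p = 0.147 by limma) or with wild-type replicate 2 left out (0.61, adjusted p = 0.0642 by limma). RNU6ATAC38P had 42.5 and 33.1 RPKM in the knockdown libraries, against 14.3 and 26.2 RPKM in the wild-type libraries. It did not pass, at 0.89 ± 0.29 (SE, adjusted p = 0.0788 by limma). The U6atac class as a whole had 115 and 99.5 CPM in the knockdown libraries, against 106 and 112 CPM in the wild-type libraries, so the groups overlapped.

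U7, which guides the 3′ end cleavage of replication-dependent histone mRNAs, was read rarely. RNU7-1 (chromosome 12, positions 6943816 to 6943878, plus strand) had 13.7 and 12.4 RPKM in the knockdown libraries, against 4.33 and 8.07 RPKM in the wild-type libraries, from 11 and 9 reads in the knockdown libraries, against 5 and 10 reads in the wild-type libraries. The log2 fold change was 1.07 ± 0.28 (SE, adjusted p = 0.0456 by limma). The read ratio has an exact 95% counting interval of 0.974 to 4.20, limma-voom gave an adjusted p of 0.0871, and the limma call was lost with knockdown replicate 1 left out (1.002, adjusted p = 0.0984 by limma) or with knockdown replicate 2 left out (1.13, adjusted p = 0.0693 by limma). Its log2 fold change was 0.62 without wild-type replicate 1 and 1.52 without wild-type replicate 2. It lies within exons of C12orf57 and, on the opposite strand, U47924.31, neither of which passed the test (limma adjusted p = 0.199 and 0.106).

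**Figure D5:**
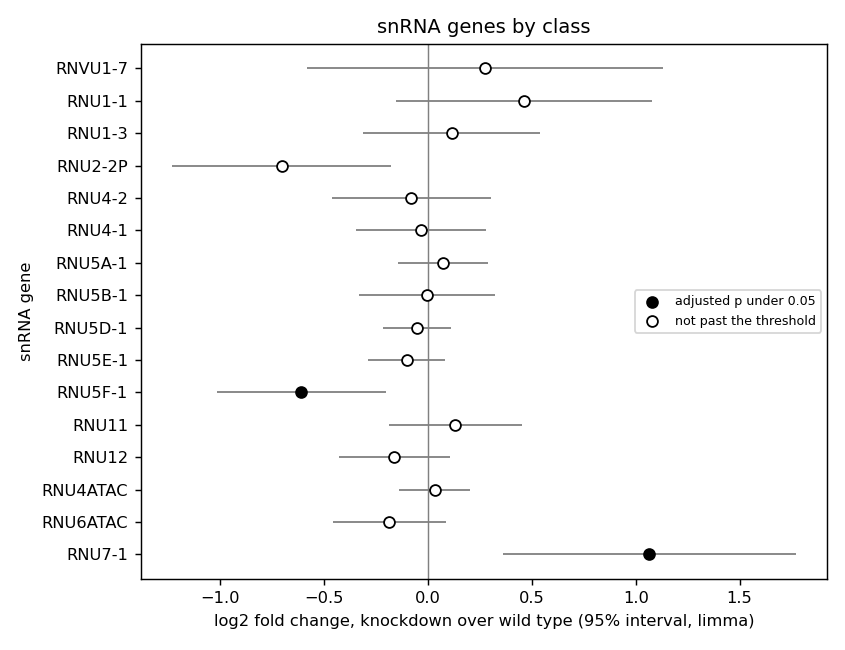
Log2 fold change (knockdown over wild type) with its 95% interval from limma for 16 snRNA genes, ordered by class from U1 at the top to U7 at the bottom; filled points passed an adjusted p of 0.05. RNU5F-1 is filled below 0 and RNU7-1 above 0, and the interval of RNU2-2P lies below 0 from -1.23 to -0.18 without passing after adjustment.

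Members differed in where they lie. Of the 181, 51 were between genes, 69 in an intron on the same strand, 42 in an intron on the opposite strand, 11 in an exon of another gene on the same strand and 8 in an exon on the opposite strand. Among the 14 called members, 5 overlap an exon of another gene, and without members of that kind 4 were higher and 5 lower. The higher calls in same-strand exons were RNVU1-14, RNU1-125P and RNU7-1, and 1 call there was lower. Of the 15 tested members in same-strand introns, 0 were higher and 1, RNU6-4P, was lower. By limma-voom 10 members were higher and 6 lower (28.6% of 56, against 35.8% of all tested genes), and 10 were called by both. The 6 called by limma-voom alone were RNVU1-7, RNU1-1, RNU2-2P, RNU1-67P, RNU6ATAC38P and RNU1-84P. RNU1-28P, RNU1-27P, RNU6-4P and RNVU1-15 were called by both and without any 1 library.

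Genes whose products make snRNAs or join them in particles were counted in 9 lists. Over 117 tested genes 7 were higher and 15 lower, with a median log2 fold change of 0.02; of all tested genes 11.1% were higher and 13.8% lower. Of the genes named from them, only SNRPG and ZCRB1 passed without any 1 library, and the highest adjusted p of the others then ran from 0.0518 (LSM7) to 0.173 (NCBP1) by limma. In the Integrator complex, which cuts the 3′ ends of polymerase II snRNAs, 7 of 16 were lower and 0 higher, against those 13.8% and 11.1% of all tested genes, with a median of -0.22. The largest subunit, INTS1, had 15.4 and 16.6 RPKM in the knockdown libraries, against 21.5 and 21.3 RPKM in the wild-type libraries, with a log2 fold change of -0.48 ± 0.08 (SE, adjusted p = 0.0115 by limma). INTS9, the partner of the cleaving subunit, had 0.914 and 1.08 RPKM in the knockdown libraries, against 1.64 and 1.59 RPKM in the wild-type libraries, with a log2 fold change of -0.70 ± 0.16 (SE, adjusted p = 0.0306 by limma), and INTS8 changed by -0.47 ± 0.10 (SE, adjusted p = 0.0236 by limma).

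In snRNA gene transcription 2 of 15 were higher, the elongation factors ELL2 and ELL, and 1, the SNAPc subunit SNAPC4, was lower. ELL2 had 7.01 and 6.52 RPKM in the knockdown libraries, against 4.56 and 4.14 RPKM in the wild-type libraries, with a log2 fold change of 0.56 ± 0.10 (SE, adjusted p = 0.0156 by limma). ELL changed by 0.53 ± 0.12 (SE, adjusted p = 0.0311 by limma) and SNAPC4 by -0.35 ± 0.09 (SE, adjusted p = 0.0395 by limma). Of 8 genes of export, cap hypermethylation and import, 1 was lower, the cap-binding subunit NCBP1, at -0.36 ± 0.09 (SE, adjusted p = 0.0403 by limma). Of 14 genes of the SMN complex and methylosome, which load the Sm ring, 1 was lower, GEMIN4, at -0.52 ± 0.09 (SE, adjusted p = 0.0152 by limma).

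Of 8 genes for Sm proteins 2 were higher and 0 lower. SNRPG had 29.99 and 26.6 RPKM in the knockdown libraries, against 18.5 and 18.3 RPKM in the wild-type libraries, with a log2 fold change of 0.55 ± 0.08 (SE, adjusted p = 0.00901 by limma), and SNRPD2 changed by 0.41 ± 0.08 (SE, adjusted p = 0.0220 by limma). Of 9 LSm genes 2 were higher, LSM7 at 0.60 ± 0.10 (SE, adjusted p = 0.0121 by limma) and LSM3 at 0.58 ± 0.12 (SE, adjusted p = 0.0240 by limma). Of 24 genes for particle-specific proteins 4 were lower and 0 higher. Among them SF3B3, of the U2 particle, changed by -0.49 ± 0.07 (SE, adjusted p = 0.00966 by limma). SNRNP200 and PRPF8, the helicase and the core scaffold of the U5 particle, changed by -0.36 ± 0.06 (SE, adjusted p = 0.0150 by limma) and -0.31 ± 0.07 (SE, adjusted p = 0.0268 by limma).

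Of 8 minor spliceosome genes 1 was higher, ZCRB1, a protein of the U11/U12 particle, which had 20.3 and 18.4 RPKM in the knockdown libraries, against 12.2 and 11.4 RPKM in the wild-type libraries, with a log2 fold change of 0.65 ± 0.08 (SE, adjusted p = 0.00689 by limma). Of 15 genes of 3′ trimming, U6 processing and turnover, 1 was lower, the capping enzyme of 7SK RNA, MEPCE, at -0.42 ± 0.09 (SE, adjusted p = 0.0292 by limma). Other abundant small RNAs differed in direction. RN7SL1 and RN7SL2, near-identical genes for the RNA of the signal recognition particle, between which reads can be split, were higher in both knockdown libraries. RN7SL1 had 68284 and 76439 RPKM in the knockdown libraries, against 58408 and 46727 RPKM in the wild-type libraries, and RN7SL2 had 96191 and 100467 RPKM in the knockdown libraries, against 77362 and 62102 RPKM in the wild-type libraries. Neither passed by limma, at 0.40 ± 0.70 (SE, adjusted p = 0.702 by limma) and 0.44 ± 0.81 (SE, adjusted p = 0.720 by limma), and both passed in limma-voom (adjusted p = 0.00153 and 0.000507). RMRP, the RNA of RNase MRP, had 8419.8 and 8367 RPKM in the knockdown libraries, against 14478 and 12519 RPKM in the wild-type libraries, and RPPH1, that of RNase P, had 3278 and 3165 RPKM in the knockdown libraries, against 4724 and 4065 RPKM in the wild-type libraries. Neither passed by limma, at -0.75 ± 0.29 (SE, adjusted p = 0.114 by limma) and -0.51 ± 0.19 (SE, adjusted p = 0.1005 by limma), and both passed in limma-voom (adjusted p = 1.26e-07 and 1.94e-05). RN7SK, which restrains transcription elongation, had 34923 and 33547 RPKM in the knockdown libraries, against 37150.4 and 37093 RPKM in the wild-type libraries. It did not pass, at -0.18 ± 0.52 (SE, adjusted p = 0.823 by limma), nor in limma-voom (adjusted p = 0.0561).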

How the data were processed

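Per the submitters' processing notes, reads were handled with StringTie 1.3.2, Trimmomatic 0.36, Subread 1.5.1, featureCounts and edgeR 3.12.1. The sources used here do not give the aligner, the strand setting, the treatment of reads that fit several copies or the use of molecular identifiers. The named build is mouse mm9, whereas 99.9% of 26367 gene names lay on the same chromosome as in GENCODE 29 on GRCh38, and 93.6% had the same start and end. The authors deposited RPKM per gene name, which were whole multiples of 1 read within 0.01 read for 100% of values. Reads were recovered from these. Reads in an exon of 2 genes were counted for both, as the totals of RNU2-2P and WDR74 show.

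RPKM values were divided by TMM factors and compared between groups on the log2(RPKM + 0.1) scale by limma 3.58.1 (R 4.3.3), with a level-dependent prior, no covariate, and p-values adjusted by Benjamini-Hochberg over the 20221 genes that reached the equivalent of 10 reads in 2 libraries and 15 reads in all. Fold changes on this scale understate those of low genes. Residual degrees of freedom were 2 and those of the prior 3.56. The procedure was tested on simulated data. Class sums are recovered reads. Exact counting intervals cover counting error only. Alternatives were limma-voom on recovered reads, other scalings, pseudocounts and filters, robust moderation, a replicate block and leaving out each library.

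The members and the 9 lists were chosen with earlier results of these data known. Named were the 3 most abundant members of a class, members past the threshold, members next to the RPKM limit, and up to 3 called genes of a list. Any member outside U6 could also be named, and others (RNU6-11P, RNU6-1283P, the overlapping genes and other small RNAs) were named after their values had been seen. Sequences came from GENCODE 29 transcripts for all 181 members, and 180 had the coordinates of the tables. The rows named U1, U2, U4 and U6 each merge several loci and are no members, and none passed (limma adjusted p = 0.619, 0.892, 0.0613 and 0.157). The markers GPC3 and CD3E were not analysed here. An overlapping gene and some sequences are not reported here.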

Additional observations from a re-analysis of the deposited data

How the results depend on the processing

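Over 33 named members and the fits with other settings, 290 of the fold changes kept their direction and their side of the threshold, 18 lost the call, 8 gained it and 5 changed sign. Those that changed sign were near 0: RNU4-1 was 0.031 when scaled to total reads only, and RNU5B-1 was 0.0047 by limma-voom, 0.019 with median-of-ratios scaling, 0.060 when scaled to total reads only and 0.00087 with scaling without short genes. Without the filter on low values, 693 of all genes were higher and 1113 lower, against 2240 and 2792 with it, and 3 members were higher. More genes were tested in that fit and its prior was weaker. Without members that overlap an exon, 4 were higher. The U7 log2 ratio was 1.08 with members of at least 5 RPKM, which leaves RNU7-1 alone, so it is no sum over copies. The log2 ratio of U4atac was 0.073 when scaled to total reads only, a setting that by its construction shifts every class ratio by the same amount.

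Leaving out each library gave 968 to 1531 genes higher and 1322 to 1690 lower over all genes, and 4 to 10 members higher. The log2 fold change ran from -0.023 to 0.25 for RNU1-3, -0.043 to 0.31 for RNU11, -0.13 to 0.065 for RNU4-1, -0.22 to 0.063 for RNU4-2, -0.17 to 0.16 for RNU5B-1 and -0.24 to 0.59 for RNU6-26P, each crossing 0. A lone library in a group was assumed to vary like the other group. Scaling to total reads only turned the split of all calls to 2783 higher and 2234 lower, and members to 9 and 5. Limma-voom called 14 higher and 26 lower over the 9 lists, against 7 and 15 with limma; of all tested genes limma-voom called 16.2% higher and 19.6% lower.

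Deviations of same-numbered libraries had r = 0.063 over all tested genes and 0.124 over genes above the median level. The labels do not say that a number marks a shared batch, so the numbers were not used to pair libraries. With the number as a replicate block 9 members were higher and 7 lower, and 2348 and 2781 of all genes, and RNU6ATAC25P lost its call (adjusted p = 0.0582 by limma). Depth limits the rare copies most: 12 tested members had fewer than 20 reads in every library, and members that were not tested had at most 20.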
